A study of Arabidopsis thaliana with 6 samples.

Results

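The 51 *Arabidopsis* genes that encode late embryogenesis abundant (LEA) proteins, dehydrins included, were compared between *atwri1-1* mutant and WT embryos. Members were taken by locus identifier from the LEA gene family and not by their mRNA levels, though earlier results of these data were known. Of the 51, 47 were among the 24509 transcripts with at least 1 read in any library. Embryos of the Col-0 ecotype were dissected 8 d after pollination from plants homozygous for *atwri1-1* or from WT plants grown in the same way, with 25 to 30 embryos pooled for each of 3 biological replicates per genotype. The mutant group is 1 allele, and pooled whole embryos were sequenced, so fewer cells of a type and less RNA per cell cannot be told apart. WRI1 is an AP2-type transcription factor that activates glycolytic and fatty acid synthesis genes in seeds.

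LEA proteins are mostly small, hydrophilic and without fixed structure in solution, and they protect membranes and enzymes when cells lose water. In seeds their mRNAs accumulate late in maturation, under abscisic acid (ABA), the B3 factor ABI3 and bZIP factors such as ABI5, which bind ABA-response elements (ABREs) with an ACGTG core. Several dehydrins and COR15 genes are also induced by cold in leaves, through CBF factors that bind the DRE/CRT core CCGAC. The 51 genes fall into 9 classes by protein domain, LEA_1 to LEA_5, dehydrins, SMP, PvLEA18 and AtM, which are taken in turn below after the family as a whole.

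Promoters of genes from both ends of the comparison were read for these cores, and not all held them. At the low end, *XERO1* held the ABRE core only, and *COR15B* (not shown) held neither core. The 250 bases before *COR15B* (17710434 to 17710683) lie almost wholly within the annotated *COR15A* gene (17710441 to 17712330). The absence of the cores there may therefore depend on the annotated start, which was not tested. Shown here are the 250 bases before the transcript start of the 2 genes called higher in *atwri1-1* (AT4G21020 and *M10*), of 2 LEA_1 genes with large log2 fold changes (*LEA4-5* and *LEA18*) and of the gene with the lowest log2 fold change (*XERO1*), read 5′ to 3′ on the gene's strand. Coordinates and sequence are from RefSeq TAIR10.1, and capitals mark an ABRE core (ACGTG), an RY element (CATGCA, bound by B3 factors such as ABI3 and FUS3) or a DRE/CRT core (CCGAC) on either strand.
AT4G21020, chr4:11227937-11228186, plus strand: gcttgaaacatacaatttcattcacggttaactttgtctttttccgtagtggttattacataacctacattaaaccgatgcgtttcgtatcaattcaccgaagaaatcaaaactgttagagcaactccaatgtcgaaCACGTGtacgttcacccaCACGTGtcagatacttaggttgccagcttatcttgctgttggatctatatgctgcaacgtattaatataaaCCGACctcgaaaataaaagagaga
*M10* (AT2G41280), chr2:17209447-17209696, plus strand: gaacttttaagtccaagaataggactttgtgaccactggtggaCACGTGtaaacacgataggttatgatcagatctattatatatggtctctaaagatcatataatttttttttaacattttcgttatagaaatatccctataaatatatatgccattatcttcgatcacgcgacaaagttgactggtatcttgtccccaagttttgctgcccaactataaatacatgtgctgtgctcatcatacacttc
*LEA4-5* (AT5G06760), chr5:2090431-2090680, minus strand: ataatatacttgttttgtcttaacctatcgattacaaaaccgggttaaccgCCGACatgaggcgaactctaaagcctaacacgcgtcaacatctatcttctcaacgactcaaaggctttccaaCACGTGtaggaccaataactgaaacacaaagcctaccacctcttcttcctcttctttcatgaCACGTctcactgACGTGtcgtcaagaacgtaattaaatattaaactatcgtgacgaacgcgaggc
*LEA18* (AT2G35300), chr2:14863413-14863662, minus strand: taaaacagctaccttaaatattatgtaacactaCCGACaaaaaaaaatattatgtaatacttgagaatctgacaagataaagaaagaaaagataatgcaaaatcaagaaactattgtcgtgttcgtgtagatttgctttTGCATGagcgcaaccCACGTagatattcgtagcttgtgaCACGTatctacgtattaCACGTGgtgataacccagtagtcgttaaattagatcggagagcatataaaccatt
*XERO1* (AT3G50980), chr3:18941675-18941924, plus strand: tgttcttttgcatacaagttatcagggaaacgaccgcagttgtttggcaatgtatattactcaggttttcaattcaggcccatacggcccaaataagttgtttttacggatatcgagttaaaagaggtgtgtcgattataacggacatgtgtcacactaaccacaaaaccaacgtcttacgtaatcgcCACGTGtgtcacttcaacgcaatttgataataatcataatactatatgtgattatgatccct

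In a window from 250 bases before to 50 after the transcript start, the ABRE core was found on either strand in 37 of the 51 promoters (72.5%) and in 26.8% of 27421 protein-coding genes. The palindrome CACGTG, which holds the core on both strands, counted as 2 matches. The DRE/CRT core was in 20 of 51 (39.2%) against 15.3%, and the RY element in 10 of 51 (19.6%) against 9.70%. Of the motifs linked to WRI1 binding, the AW Box was in 10 of 51 (19.6%) against 12.2%, and the CNC Box (CNCCNCC) in 5 of 51 (9.80%) against 14.8%. The CCAAT box (CCAAT), bound by NF-Y complexes, was in 30 of 51 (58.8%) against 51.5%. These shares describe letters in a window and not bound sites, and no test was run on them.

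The predicted proteins, translated from the TAIR10.1 coding sequences, shared the composition the family is known for. Their median hydropathy (mean Kyte-Doolittle score per protein, where lower is more hydrophilic) was −0.98, against −0.29 over 27339 protein-coding genes, and 44 of 51 lay below the latter value. Neither cysteine nor tryptophan was present in 24 of the 51 (47.1%), against 2.34% of all genes. Single proteins departed from this. M17 had 24 cysteines in 280 residues, and the LEA_2 protein of AT2G46140 had a hydropathy of 0.12. Among the dehydrins, RAB18 was 33.9% glycine.

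Reads counted on transcripts numbered between 8510887 and 18933870 per library. In *atwri1-1* replicate 1, 86.6% of the reads in the count file were assigned to no transcript, against 39.6% to 45.0% in the other 5 libraries. The mRNA of *WRI1* itself was at 1256, 1100 and 1042 CPM in libraries labelled *atwri1-1* and at 186, 148 and 166 CPM in WT, so it gave no check of the labels, and *atwri1-1* below stands for the libraries labelled so. Levels are given as CPM, the counts divided by the TMM-scaled number of reads on tested genes and multiplied by 1000000, and 3 counts, up to which a value of 0 is possible, were worth 0.148 to 0.338 CPM. All 9 embryo markers were detected and tested, with the oleosin *OLEO1* at 1444 CPM or more in every library. The summed level of the endosperm markers ranged from 75.7 to 263 CPM in *atwri1-1* and from 72.9 to 396 CPM in WT. WT replicate 1 had the highest sum of all 6, of which *EPR1* alone made up 344 CPM. *ALE1*, the next most abundant of these markers, was highest in *atwri1-1* replicate 1, at 66.3 CPM against 43.0 CPM in WT replicate 1. *PHE1* was at 0 in 5 libraries. Summed seed coat markers ranged from 404 to 613 CPM and from 394 to 477 CPM, respectively. *ARA12* was the most abundant of them, at 213 to 331 CPM over the 6 libraries, so the sums follow it closely. *TT10* was highest in replicate 1 of both genotypes, at 116 CPM in *atwri1-1* and 107 CPM in WT. *MUM4* was highest in *atwri1-1* replicate 1, at 145 CPM, and lowest in WT replicate 1, at 52.1 CPM.

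At this stage the LEA mRNAs were scarce. With expressed defined as a mean of at least 1 CPM in a genotype, 29 of the 51 genes were expressed, 23 of them in both genotypes. *LEA18*, AT3G15670 and *LEA4-5* reached 1 CPM in *atwri1-1* only, *COR15B*, *XERO1* and *EM1* in WT only, and 22 genes in neither. At 5 CPM 19 genes were expressed, and at 10 CPM 13 genes. The members with no read in any library were 4, namely AT2G03740 (LEA_4), AT3G53770 (LEA_3), AT5G53260 and AT5G53270 (both SMP). The same 29 genes passed the filter on low counts and were tested, and the 18 genes with reads that were not tested never exceeded 27 counts or 2.25 CPM in a library.

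Summed over the family, the level was 514, 550 and 659 CPM in *atwri1-1* replicates 1 to 3 and 753, 398 and 382 CPM in WT replicates 1 to 3. These sums are between 0.0382% and 0.0753% of the reads of tested genes. WT replicate 1 was the highest library and the other WT libraries the lowest, so the genotypes overlapped. The 3 most abundant genes of a library made up 39.2% to 45.1% of its sum.

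**Figure D1:**
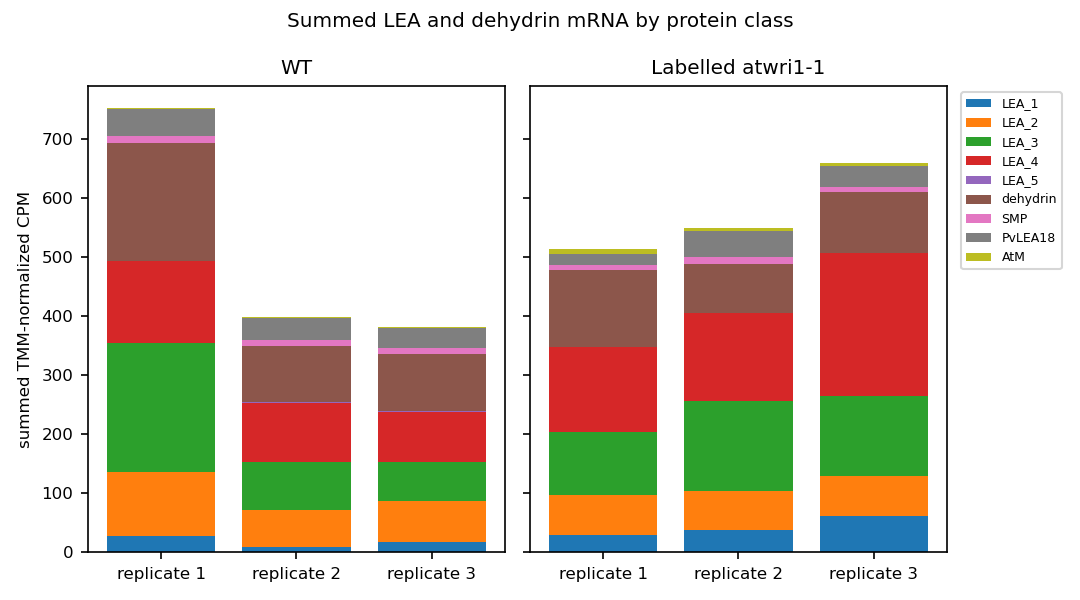
Summed LEA and dehydrin mRNA in each of the 6 libraries, in TMM-normalized CPM, stacked by protein class, with WT on the left and the libraries labelled *atwri1-1* on the right. WT replicate 1, at 753 CPM, lies above the 514 to 659 CPM of *atwri1-1*, and the other 2 WT libraries, at 398 and 382 CPM, lie below it.

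Per kilobase of transcript, *DI21* (LEA_3) was the most abundant member, at 110 CPM per kb in WT and 114 in *atwri1-1*. It was followed by AT2G44060 (LEA_2) at 49.7 and 43.7 CPM per kb, and AT2G23120 (PvLEA18) at 48.5 and 41.3. AT5G44310 (LEA_4), the dehydrin gene *ERD14* and *AtLEA4-1* (LEA_1) came next, at 25.1, 29.8 and 20.2 CPM per kb in WT and 46.5, 36.5 and 44.7 in *atwri1-1*. Neighbours in this order overlapped across the 6 libraries. The genes of the Em proteins, known from dry seeds, were at low levels, with *EM1* at or below 1.18 CPM and *GEA6* (*EM6*) at or below 0.34 CPM in every library.

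Between genotypes, 2 of the 29 tested genes were called differentially expressed, both higher in *atwri1-1*. Calls were made in edgeR's quasi-likelihood test over all 18241 genes that passed the filter, at a p of at most 0.05 after Benjamini-Hochberg adjustment, with a log2 fold change beyond 1. The called share was 2 of 29 for higher, against a background of 1.08% of all genes tested, and 0 of 29 for lower, against a background of 5.31%. At an unadjusted p under 0.05, 5 members had a lower and 8 a higher level in *atwri1-1* by edgeR and by DESeq2, and 4 and 8 by limma-voom. Together these were 13 of 29 by edgeR (44.8%), against 25.1% of all genes tested. By direction, 15.3% of all genes tested were lower and 9.86% higher at this p by edgeR. The shares were 15.6% and 10.6% by DESeq2, and 14.5% and 10.6% by limma-voom. DESeq2 called 3 members lower (*COR15B*, AT2G46140 and *XERO1*) and 5 higher (AT4G21020, *M10*, AT1G72100, *LEA18* and *LEA4-5*), and limma-voom 0 and 2. Over all genes, DESeq2 called 6.54% lower and 1.74% higher, and limma-voom 4.85% and 1.12%.

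Log2 fold changes (*atwri1-1* over WT) ran from −2.08 to 2.30 and fell on both sides of 0, with 15 genes above and 14 below. The median was 0.05, and −0.01 over all genes tested. All 3 values of *atwri1-1* lay above all 3 of WT for 6 of the 29 genes, where 16.1% of all genes tested did so, and below them for 4 of 29, where 18.9% did. By replicate number, 7 genes were higher in *atwri1-1* in 3 of 3 pairs, 6 were lower in 3 of 3, and 16 were mixed. This tally was not taken over all genes tested, so it has no background to be read against.

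**Figure D2:**
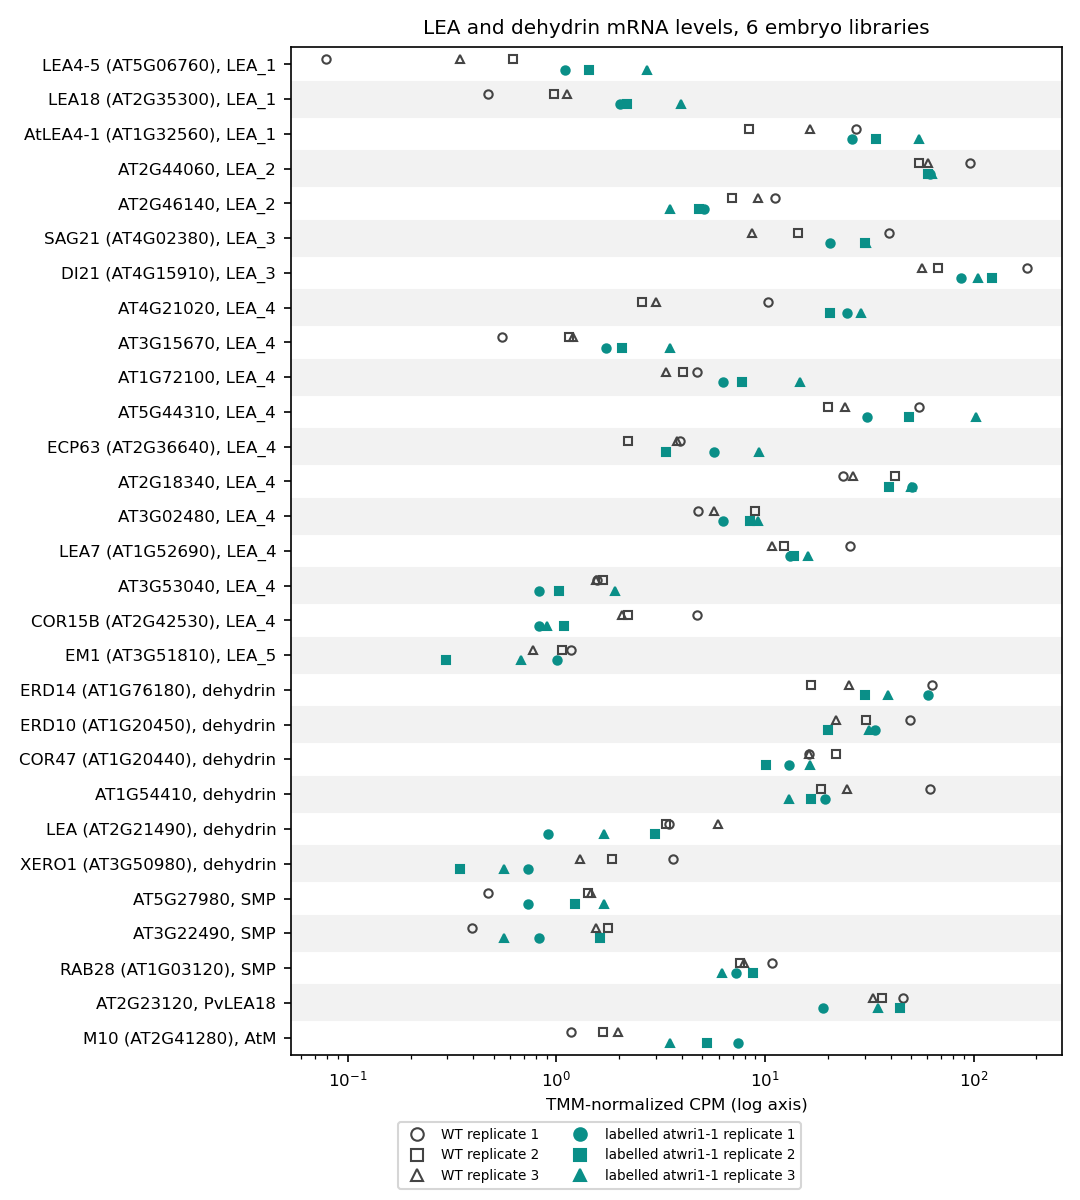
TMM-normalized CPM (log axis) of the 29 tested genes in the 6 libraries, grouped by class and sorted by log2 fold change within it, with WT as open and *atwri1-1* as filled symbols and shapes for the replicate number. AT4G21020, *M10*, *LEA18*, *LEA4-5*, AT3G15670 and AT1G72100 have all filled symbols to the right, and *XERO1*, *COR15B*, AT2G21490 and AT2G46140 all to the left.

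AT4G21020, a LEA_4 gene (chromosome 4, 11228187 to 11229616, 2 exons), rose in *atwri1-1*. LEA_4 proteins carry repeats of a short motif that folds into helices as they dry. Its level was 24.8, 20.5 and 28.9 CPM in *atwri1-1* and 10.3, 2.57 and 3.02 CPM in WT. All *atwri1-1* libraries were above all WT libraries, of which replicate 1 was the highest. The log2 fold change was 2.21 ± 0.51 (SE, n = 3 per genotype), with an adjusted p of 0.0359. Leaving out any 1 library other than WT replicate 1 ended the call (adjusted p from 0.0721 to 0.133), and leaving out WT replicate 1 gave a log2 fold change of 3.13 with an adjusted p of 7.75e-05.

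The other called gene was *M10* (AT2G41280, chromosome 2, 17209697 to 17210423, 2 exons), an AtM gene first known as a seed transcript of late maturation. It rose from 1.18, 1.68 and 1.98 CPM in WT to 7.41, 5.28 and 3.50 CPM in *atwri1-1*. The groups did not overlap, and replicate 3 of each genotype lay nearest to the other genotype. The log2 fold change was 1.74 ± 0.38 (SE, n = 3), with an adjusted p of 0.0307. With the replicate number as a block the call was lost (log2 fold change 1.70, adjusted p 0.0640), and it was also lost without any 1 library other than WT replicate 1 (adjusted p from 0.0516 to 0.122). *M17* (AT2G41260), the other AtM gene, lies near *M10* on chromosome 2 and stayed between 0 and 0.79 CPM, so that it was not tested.

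The 3 LEA_1 genes all had higher mean levels in *atwri1-1*, each with an unadjusted p under 0.05 in edgeR's test, and none was called there, while DESeq2 called 2. LEA_1 proteins are known from vegetative and seed drought responses. *LEA4-5* (AT5G06760, chromosome 5, 2089445 to 2090430) was at 1.10, 1.43 and 2.71 CPM in *atwri1-1* and 0.079, 0.619 and 0.345 CPM in WT. The groups did not overlap, and the lowest WT value is 1 read. Its log2 fold change was the highest of the family, 2.30 ± 0.68 (SE), with an adjusted p of 0.0815. *LEA18* (AT2G35300, chromosome 2, 14862779 to 14863412) was at 2.01, 2.17 and 3.95 CPM against 0.471, 0.973 and 1.12 CPM in WT, again without overlap, at a log2 fold change of 1.64 ± 0.47 and an adjusted p of 0.0751. *AtLEA4-1* (AT1G32560), the abundant member of the class, was at 26.2, 33.9 and 54.9 CPM against 27.3, 8.40 and 16.4 CPM. Here WT replicate 1 lay among the *atwri1-1* libraries, the log2 fold change was 1.14 ± 0.44 with an adjusted p of 0.162, and without that library it was 1.61 with an adjusted p of 0.0215.

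LEA_4 was the largest class, with 18 members, of which 17 had reads and 10 were tested. Beside AT4G21020, 6 of the 10 had a log2 fold change above 0 and 3 below, with a class median of 0.74. AT1G72100 (chromosome 1, 27127170 to 27128978) was at 6.31, 7.74 and 14.7 CPM in *atwri1-1* and 4.71, 4.07 and 3.36 CPM in WT. Its groups were apart, and its log2 fold change of 1.23 ± 0.36 had an adjusted p of 0.0766. Without *atwri1-1* replicate 3 it was 0.80. AT3G15670 (chromosome 3, 5309886 to 5310988) was also apart, at 1.74, 2.07 and 3.50 CPM against 0.550, 1.15 and 1.21 CPM, with a log2 fold change of 1.31 ± 0.46 and an adjusted p of 0.129.

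Among the other LEA_4 genes, AT5G44310 is the closest relative of AT4G21020 in the family, with 51.2% identical residues over their alignment. It was at 30.9, 49.01 and 103 CPM in *atwri1-1* and 54.9, 20.0 and 24.2 CPM in WT, which overlapped, at a log2 fold change of 0.88 ± 0.52 and an adjusted p of 0.345. That value was 0.28 without *atwri1-1* replicate 3 and 1.45 without WT replicate 1. *ECP63*, the gene of an embryonic cell protein, was at 5.67, 3.35 and 9.36 CPM against 3.93, 2.21 and 3.796 CPM. It was higher in *atwri1-1* in 3 of 3 pairs, and the values overlapped. AT2G18340 was at 50.9, 39.1 and 50.1 CPM in *atwri1-1* and 23.6, 41.8 and 26.4 CPM in WT, where replicate 2 reached the mutant range. *LEA7*, whose protein protects enzymes during drying, was at 13.2 to 16.1 CPM in *atwri1-1* and 10.8 to 25.7 CPM in WT. *ECP63*, AT2G18340, AT3G02480, *LEA7* and AT3G53040 had log2 fold changes of 0.87, 0.61, 0.31, −0.19 and −0.37, with adjusted p from 0.167 to 0.766.

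*COR15B* (AT2G42530, chromosome 2, 17708593 to 17710433) stood opposite to most of its class. COR15 proteins are imported into chloroplasts and protect their membranes during freezing. *COR15B* was at 0.823, 1.08 and 0.902 CPM in *atwri1-1* and 4.71, 2.21 and 2.07 CPM in WT. All WT libraries were higher, and replicate 1 was the highest of these. The log2 fold change was −1.66 ± 0.44, with an adjusted p of 0.0601. Of all 31-base stretches in its transcript, 71.8% were unique among primary transcripts and 438 were shared with AT2G42520. Reads with more than 1 best place were dropped before counting, so its count is uncertain. Its neighbour *COR15A* (75.9% identical residues) had at most 2 counts in a library and was not tested. Of the other untested LEA_4 genes, *UNE15* was at 0, 0.049 and 0.225 CPM in *atwri1-1* and 0.471, 0.885 and 0.431 CPM in WT.

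**Figure D3:**
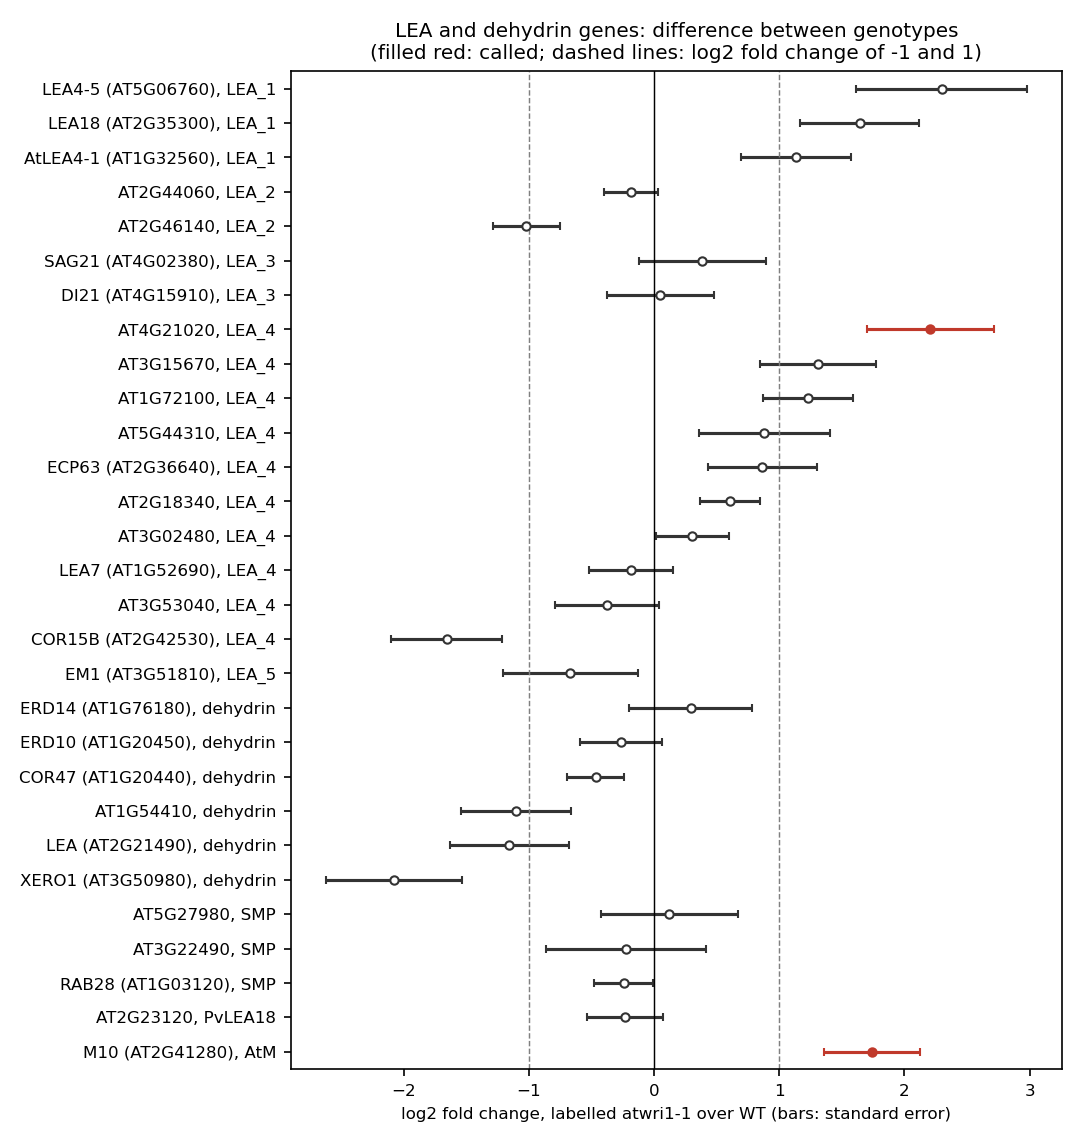
Log2 fold change (*atwri1-1* over WT) of the 29 tested genes with its standard error, by class, in edgeR's quasi-likelihood fit on 3 libraries per genotype. The filled points are the 2 called genes, AT4G21020 at 2.21 and *M10* at 1.74, and dashed lines mark −1 and 1.

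Of the 6 tested dehydrin genes, 5 had a log2 fold change below 0, with a median of −0.78. None of the 6 was called by edgeR's test, where 3 had an unadjusted p under 0.05, all lower, and DESeq2 called 1 (*XERO1*) and limma-voom 0. Dehydrins carry lysine-rich K-segments that form helices on membranes. *XERO1* (AT3G50980, chromosome 3, 18941925 to 18942940), a small dehydrin gene, was at 0.732, 0.345 and 0.564 CPM in *atwri1-1* and 3.61, 1.86 and 1.29 CPM in WT. The groups did not overlap. Its log2 fold change of −2.08 ± 0.54 was the lowest of the family, with an adjusted p of 0.0557. AT2G21490 (chromosome 2, 9205990 to 9207125), a dehydrin gene annotated simply as *LEA*, was at 0.915, 2.96 and 1.69 CPM against 3.46, 3.36 and 5.95 CPM. Its groups were apart by the small gap between replicates 2, and the log2 fold change was −1.16 ± 0.48 with an adjusted p of 0.185.

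AT1G54410, which encodes a short histidine-rich dehydrin, was at 19.3, 16.7 and 13.1 CPM in *atwri1-1* and 61.9, 18.7 and 24.8 CPM in WT. It was lower in 3 of 3 pairs but the groups overlapped, with WT replicate 1 far above the rest. The log2 fold change was −1.10 ± 0.44, with an adjusted p of 0.171, and −0.41 without that library. The 3 acidic dehydrin genes, which cold and dehydration induce in leaves, overlapped between genotypes. *COR47* was at 13.0, 10.2 and 16.5 CPM against 16.3, 21.8 and 16.3 CPM, a log2 fold change of −0.47 ± 0.23. *ERD10*, a close relative of *COR47* with 63.4% identical residues, was at 33.6, 20.1 and 31.7 CPM against 49.8, 30.5 and 22.0 CPM. *ERD14* was at 60.5, 30.0 and 38.7 CPM against 63.2, 16.6 and 25.3 CPM. Replicate 1 was the highest of its genotype in both *ERD10* and *ERD14*, whose log2 fold changes were −0.27 ± 0.33 and 0.29 ± 0.49. Of the 4 untested dehydrin genes, *RAB18*, a standard ABA-induced marker, had no read in *atwri1-1* and 1, 5 and 5 counts in WT. AT4G39130 had 9, 13 and 5 counts in *atwri1-1* and 2, 0 and 3 in WT.

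The LEA_2 genes encode the less hydrophilic, folded LEA proteins. AT2G46140 (chromosome 2, 18958999 to 18960645) was at 5.12, 4.83 and 3.50 CPM in *atwri1-1* and 11.2, 6.99 and 9.23 CPM in WT. The groups did not overlap, and the difference was seen in all 3 pairs. The log2 fold change was −1.02 ± 0.27 with an adjusted p of 0.0553. AT2G44060 was at 61.9, 60.7 and 63.5 CPM against 96.2, 54.8 and 60.5 CPM, so that WT replicate 1 lay above and the other WT libraries below the narrow range of the *atwri1-1* libraries. *LEA14* was at or below 1.19 CPM and was not tested.

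Both tested LEA_3 genes were highest in WT replicate 1. LEA_3 proteins are small and are found in mitochondria or chloroplasts. *DI21* was at 86.6, 122.7 and 105.3 CPM in *atwri1-1* and 180.2, 67.2 and 56.5 CPM in WT, with a log2 fold change of 0.05 ± 0.43. *SAG21*, also induced by oxidative stress and senescence, was at 20.4, 30.3 and 30.7 CPM against 39.1, 14.4 and 8.63 CPM, with a log2 fold change of 0.39 ± 0.51. In both genes WT replicate 1 was above every *atwri1-1* library and the other WT libraries were below every one. Without WT replicate 1 the log2 fold changes were 0.76 (adjusted p 0.0131) and 1.23 (adjusted p 0.0143).

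The remaining classes overlapped between genotypes. Of the seed maturation proteins (SMP), *RAB28*, AT3G22490 and AT5G27980 had log2 fold changes of −0.24, −0.23 and 0.12, and *RAB28* was the most abundant at 6.20 to 10.8 CPM over the 6 libraries. The LEA_5 gene *EM1* was at 1.01, 0.296 and 0.676 CPM in *atwri1-1* and 1.18, 1.06 and 0.776 CPM in WT, with a log2 fold change of −0.67 ± 0.54. The PvLEA18 gene AT2G23120 was at 18.9, 44.4 and 34.8 CPM against 46.0, 36.5 and 32.9 CPM, with a log2 fold change of −0.23 ± 0.30. *ATECP31* (SMP) and the other PvLEA18 genes, AT2G23110 and AT2G33690, had at most 2 counts in a library.

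**Figure D4:**
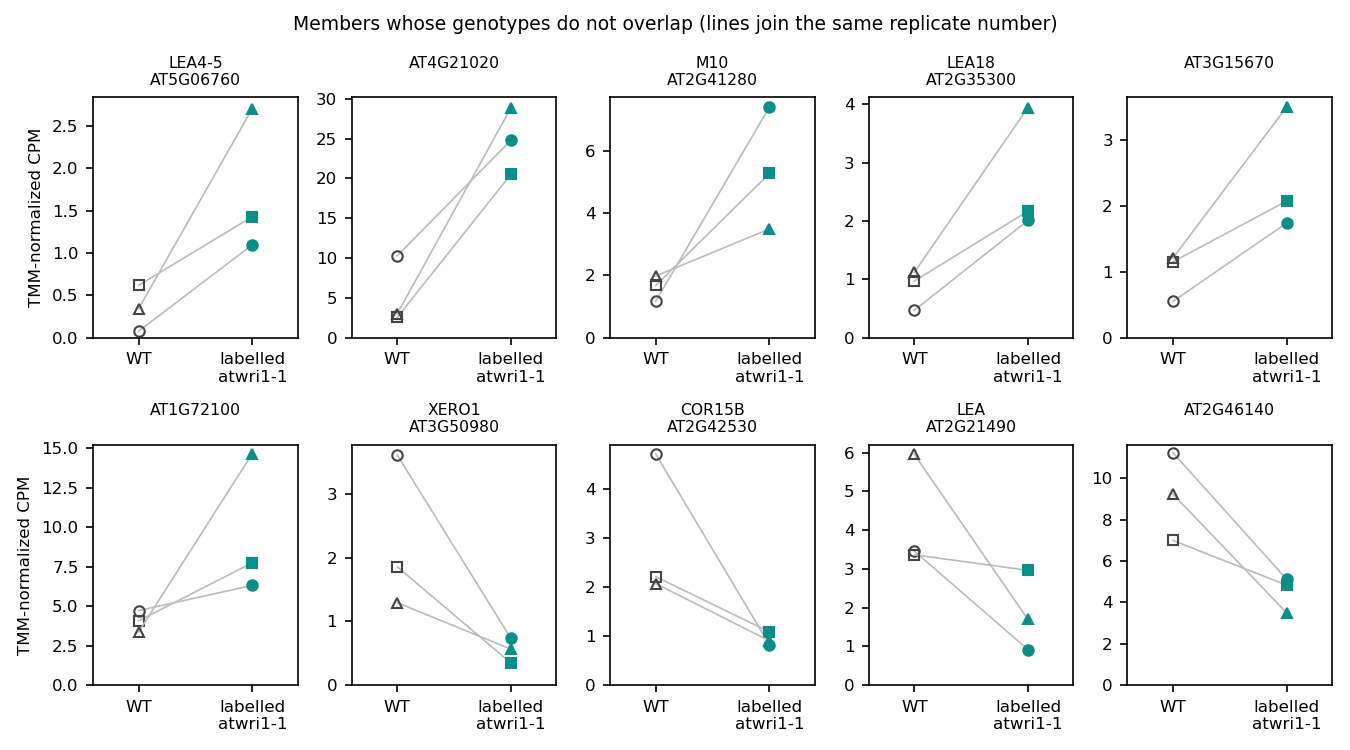
TMM-normalized CPM of the 10 tested genes whose genotypes do not overlap, with WT on the left and *atwri1-1* on the right of each panel and lines between libraries of the same replicate number. The upper 5 panels and AT1G72100 are higher in *atwri1-1* in 3 of 3 pairs and the other 4 panels lower in 3 of 3, at levels from 0.079 to 28.9 CPM.

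Set beside the promoters, each of the 6 tested genes with all *atwri1-1* values above WT held the ABRE core, with 2 to 4 matches. Of the 4 genes with all values below, 3 held it, with 0 to 2 matches. The exception was *COR15B*, whose window overlaps the annotated *COR15A* gene. AT4G21020 and *LEA4-5* each had 4 matches and *M10* and *XERO1* 2, each of the latter from a single CACGTG palindrome. By log2 fold change, the core was in 7 of 7 promoters above 1, in 4 of 5 below −1 and in 11 of 17 in between. Among all 29 tested members the ABRE core was in 22 (75.9%). In the 6 genes above and the 4 genes below WT, the DRE/CRT core was in 4 of 6 and 1 of 4. The RY element was in 1 of 6 and 1 of 4, and the AW Box in 0 of 6 and 2 of 4. No test was run on these splits.

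Other genes of the desiccation and ABA programme moved in both directions. Of 18 listed genes 13 were tested, and edgeR called 3 of them higher and 1 lower, against 1.08% and 5.31% of all genes tested. DESeq2 also called 3 higher and 1 lower, and limma-voom 2 and 1. Their median log2 fold change was 0.11. *PER1*, a seed peroxiredoxin expressed with LEA genes in maturing embryos, rose from 27.5, 10.8 and 29.3 CPM in WT to 121, 131 and 267 CPM in *atwri1-1*, at a log2 fold change of 2.94 (adjusted p 0.00899). The caleosin gene *ATS1* (*CLO1*) rose by a log2 fold change of 1.63 (adjusted p 0.0275). *ABI5*, the bZIP factor that binds ABREs of LEA genes, was at 8.87, 13.9 and 15.2 CPM against 5.50, 6.46 and 6.56 CPM, a rise of 1.04 on the log2 scale (adjusted p 0.0407).

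*DPBF2* (*bZIP67*), another bZIP factor of this list, fell from 83.4, 62.3 and 61.5 CPM in WT to 0.823, 0.296 and 1.13 CPM in *atwri1-1*, a log2 fold change of −6.68 (adjusted p 0.00023). *ABI3* and *EEL*, the most abundant genes of the list, had log2 fold changes of 0.31 and 0.11 and were not called. In the cold and CBF list of 11 genes, 0 of 6 tested genes were called by edgeR's test, and 0 had an unadjusted p under 0.05 by edgeR, DESeq2 or limma-voom. All 6 log2 fold changes were below 0, with a median of −0.41. The most abundant were *ICE1*, at −0.10, and *COR413-PM1*, at −0.27.

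Marker lists of the seed tissues were read from the same fit. Of the 9 embryo markers 0 were called by edgeR, DESeq2 or limma-voom, with 3 higher at an unadjusted p under 0.05 in each tool and 0, 1 and 2 lower, respectively. Of the 6 tested seed coat markers 0 were called and 0 had an unadjusted p under 0.05 by any of the 3 tools. Of the 5 tested endosperm markers 1 was called higher by edgeR, *AGL62*, at 1.55, 1.43 and 2.14 CPM in *atwri1-1* and 0.393, 0.265 and 0.690 CPM in WT. DESeq2 called 2 of these markers higher and limma-voom 0. The summed embryo markers were highest in replicate 3 of both genotypes, at 9784 CPM in *atwri1-1* and 7720 CPM in WT, against 4386 to 5196 CPM in the other 4 libraries. Single markers spread differently. *OLEO1* was at 2712, 2360 and 3320 CPM in *atwri1-1* and 1536, 1444 and 2178 CPM in WT. *CRA1* was at 249, 556 and 2270 CPM against 1068, 1409 and 2114 CPM. *CRU3* (*CRC*), named after its values were seen, was at 0.823, 11.9 and 135 CPM against 115, 120 and 299 CPM. The LEA_1 and LEA_4 sums were highest in *atwri1-1* replicate 3, at 61.6 and 241 CPM. Within WT they were highest in replicate 1, at 27.9 and 137 CPM, against 17.9 and 85.1 CPM in replicate 3. The part of these marker levels in the LEA differences was not tested.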

How the data were processed

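Raw counts for each primary transcript of TAIR10 were deposited by the authors, who had mapped the reads left after rRNA removal with Bowtie 0.12.7, kept reads with a single best place and used no strand. Their edgeR 3.10.5 table of normalized values was not used here. A transcript absent from a file was read as a count of 0, and the reads on no transcript (39.6% to 86.6% of a file) were left out. Counts were filtered by filterByExpr, scaled by TMM and tested across 18241 genes with edgeR 4.0.16 (R 4.3.3) by its quasi-likelihood test with Benjamini-Hochberg adjustment, with no block. Standard errors are the absolute log2 fold change over the square root of F.

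Deviations from the genotype means correlated at 0.273, 0.280 and 0.236 between libraries of the same replicate number, against −0.233 to 0.0228 otherwise. The numbers were therefore taken as pairs, but only for the tallies by replicate number and the replicate block. The main test was unpaired. That pairing comes from the values, and the title of WT replicate 3 gives 3 while its description ends otherwise. All replicates of a genotype differed by more than sampling noise, with chi-square values divided by their degrees of freedom between 6.95 and 88.7. These were counted over all genes. WT replicate 1 gave 88.7 against WT replicate 2 and 78.4 against WT replicate 3. WT replicates 2 and 3 gave 6.95, and pairs within *atwri1-1* gave 8.39 to 17.2.

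Alternatives were DESeq2 1.42.0, limma-voom (limma 3.58.1), other scalings, filters and thresholds, a replicate block, and each library left out. Named genes were all called members, those whose genotypes do not overlap, the 6 most abundant per kb, the extremes of each class, those with no read, and of each other list the called genes and the 2 most abundant. Domain classes and lists are from general knowledge, and members and lists were chosen with earlier results of these data known. Promoters and proteins were read in Python 3.11.15 from TAIR10.1, a later annotation than that of the counts.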

Additional observations from a re-analysis of the deposited data

How the results depend on the processing

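The count of members called lower was 0 in every setting run but DESeq2, which gave 3. The count called higher was 2 with other count filters, DESeq2 size factors, limma-voom or no fold minimum, and 3 with library sizes alone. It was 5 with DESeq2, 1 with the replicate block, 0 at an adjusted p of at most 0.01, and from 0 to 5 with 1 library left out. Without WT replicate 1 it was 5, with *AtLEA4-1*, AT1G72100 (log2 fold change 1.34, adjusted p 0.0464) and *SAG21* added, and without any other library 0. The cause was not tested. The replicate block changed no call but that of *M10*. Without the count filter 47 members were tested, and 19 and 13 were expressed at 5 and 10 CPM. The median log2 fold change of the members stayed above 0 except without WT replicate 2 (−0.04), and library sizes alone moved the median of all genes by 0.17. No called gene changed direction in any setting. Among genes not called, library sizes alone turned *LEA7* (AT1G52690, to 0.0119) and AT2G44060 (to 0.0051), and limma-voom AT3G22490 (to 0.0154), with log2 fold changes near 0. With 1 library left out, values ranged from −0.50 to 0.10 for *ERD10* (AT1G20450), −0.41 to 0.30 for *LEA7*, −0.0421 to 1.03 for *ERD14* (AT1G76180), −0.52 to 0.0423 for AT2G23120, −0.34 to 0.10 for AT2G44060, −0.81 to 0.11 for AT3G22490, −0.23 to 0.76 for *DI21* (AT4G15910) and −0.26 to 0.37 for AT5G27980. In the 250 bases before the start only, the ABRE core was in 70.6% of member promoters and 23.1% of all. The 18 members with reads that were not tested had no more than 27 counts in a library. Whether depth or a low mRNA level kept them from the test was not tested.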

Other observations

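Of the 11 genes in the cold and CBF list, 5 were at counts too low to be tested, and these are named here after their values were seen. *LTI78* (*RD29A*) was at 0.640, 2.02 and 1.47 CPM in *atwri1-1* and 0.236, 0 and 0 CPM in WT. *KIN1* was at 0.457, 3.40 and 1.13 CPM against 0.236, 0.265 and 0 CPM. *KIN2* was at 0.274, 0.592 and 0.789 CPM against 0, 0.088 and 0.259 CPM. *LTI78*, *KIN1* and *KIN2* had all *atwri1-1* libraries above all WT libraries. Of all genes tested 16.1% did so, but these genes were not among those tested. No such share was taken over genes too low to test. *DREB1A* (*CBF3*) and *GOLS3* overlapped between genotypes. The 6 tested genes of the same list all had log2 fold changes below 0, with a median of −0.41. None was called by edgeR's test, where 0 had an unadjusted p under 0.05 (0 also by DESeq2 and limma-voom).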
